A study of Mus musculus with 743 samples.

Results

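The secreted trophic factors Gdnf, Bdnf, Ntf3, Cntf, Lif, Vegfa, Pdgfa and Ptn and the hedgehog ligand Dhh were followed through single Schwann cells (SCs) of the mouse sciatic nerve at postnatal day 1 (P1). These 9 genes were taken by name from the 25700 genes of the count table, and all 9 were found. Cells came from pups on a C57bl/6J background that carried 1 copy each of a Cre transgene active in the SC lineage, of ReYFP (Tg/+), which the Cre switches on to give eYFP, and of βAct-DsRed (Tg/+), which expresses DsRed from the beta-actin promoter. All cells carried these alleles, no treatment is labelled, and eYFP-positive cells were sorted 1 to a well into 2 plates and read with Smart-seq2, a full-length protocol without molecular identifiers. Each plate came from its own suspension, in which cells of 1 male and 1 female pup were pooled, so the plate was the replicate (n = 2), and no value is given by animal. Only cells in which this Cre had been active are represented.

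Schwann cells at this age stand between proliferation, sorting of axons and the onset of myelination. They are known as a source of signals for their surroundings. Dhh is the hedgehog ligand of SCs and acts on the cells that build the perineurium, the sheath around a nerve fascicle. Gdnf, Bdnf, Ntf3, Cntf and Lif are known as survival factors for neurons, Vegfa acts on blood vessels, Pdgfa is a mitogen, and Ptn (pleiotrophin) is a heparin-binding growth factor.

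Of 743 wells, 621 had at least 1500 detected genes and were kept, 287 on plate 1 and 334 on plate 2. A cell was called cycling when the proliferation genes Mki67 and Top2a together reached 50 CPM (reads of a gene per 1000000 reads of the cell or sum), and promyelinating when it was not cycling and the myelin-associated gene Ncmap reached 50 CPM. There were 110 cycling, 119 promyelinating and 392 other cells. Near these limits, between 25 and 100 CPM, the cycling rule had 5 cells below and 4 above, and the Ncmap rule had 4 below and 5 above. The class sums held between 45073128 and 172878954 reads, and counts of a class were summed per plate before any test. Cycling and promyelinating cells had more detected genes (medians of 3425 to 3690) than other cells (2775 and 2819 on plates 1 and 2). Only counting error is covered by the intervals and limits below, since reads without molecular identifiers are not independent molecules.

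The labelled cell type was checked against its markers. The summed level of 3 SC markers (Sox10, S100b, Erbb3) lay between 443 and 757 CPM in the 6 class sums. The endothelial list reached at most 2.91 CPM, with Cdh5 and Kdr at 0 reads in all cells. Fibroblast-like markers summed to 0 to 36.7 CPM (Pdgfra at 0), immune markers to 2.77 to 20.7 CPM (Ptprc and Tyrobp at 0), mural markers to 24.8 to 56.8 CPM (Acta2 and Rgs5 at 0), neuronal markers to 0.777 to 24.4 CPM (Rbfox3 at 0) and perineurial markers to 32.6 to 67.4 CPM. Other members had reads, among them Dcn in 25, Csf1r in 58, Cspg4 in 62, Pdgfrb in 53 and Itgb4 in 228 of 621 cells. Of 7 cycling markers that were not used for the classes, 6 were higher in cycling than in other cells (edgeR, adjusted p under 0.05). Of 10 promyelinating markers, 7 were higher in promyelinating than in other cells (edgeR, adjusted p under 0.05). Over all genes, 1.01% and 1.79% were called in these comparisons in either direction.

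Of the 9 genes, 3 were common transcripts of P1 SCs and 6 were rare or not detected. Ptn, Pdgfa and Dhh each had reads in 68.1% to 71.2% of the 621 cells. Divided by the exon length of each gene, the level over all cells was 106 ± 13.3 CPM per kilobase for Ptn, 56.8 ± 2.69 for Pdgfa and 37.0 ± 1.31 for Dhh (SD, n = 2), and the plates of neighbouring genes in this order did not overlap. In promyelinating cells the order was another one, with 70.7 ± 8.78 CPM per kilobase for Pdgfa, 46.5 ± 0.443 for Dhh and 5.58 ± 0.930 for Ptn. The remaining genes lay at 2.01 ± 2.54 CPM per kilobase (Cntf) or below, and their plates overlapped.

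**Figure D1:**
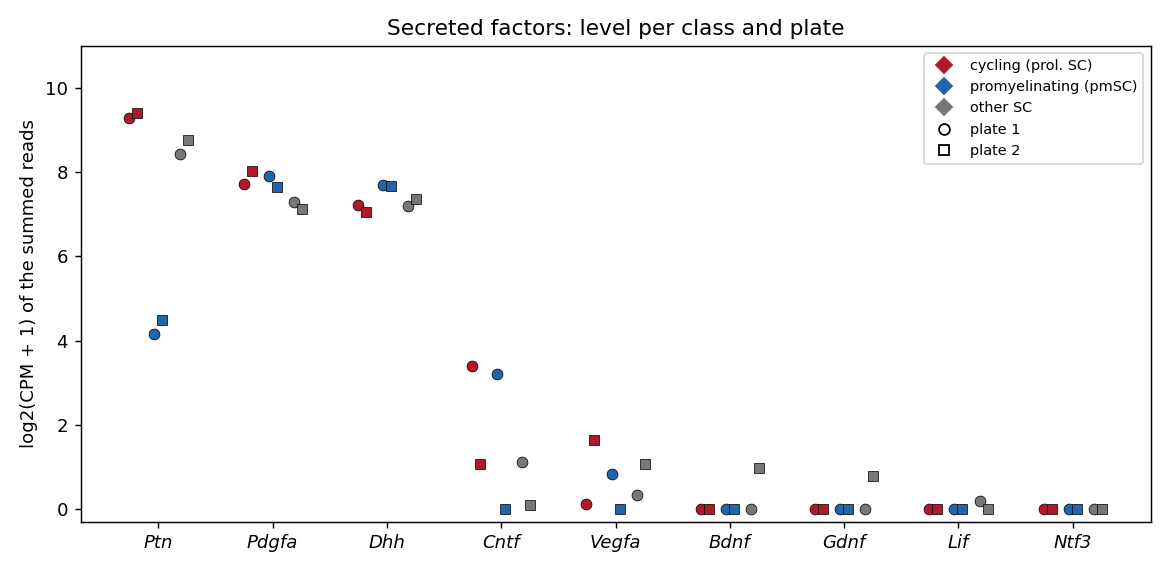
Level of each of the 9 genes as log2(CPM + 1) of the summed reads, by class (colour) and plate (circle, plate 1; square, plate 2). Pdgfa and Dhh lie far above the 6 rare or undetected genes in every class, and Ptn does so in cycling and other cells. Ptn alone of these 3 shows promyelinating points (16.9 and 21.4 CPM) well below those of both other classes. Cntf reaches 9.46 CPM in cycling cells of plate 1.

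The sequences before the start sites are shown for Ptn, the factor called between classes, and for Dhh, which was found in every class. They were taken from RefSeq (build GRCm38.p6), on the minus strand, and end at the base before the outermost annotated start. The windows are chr15:98898541-98898790 for Dhh and chr6:36810221-36810429 for Ptn. Capitals mark GC boxes, the letters GGGCGG on either strand.

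Dhh: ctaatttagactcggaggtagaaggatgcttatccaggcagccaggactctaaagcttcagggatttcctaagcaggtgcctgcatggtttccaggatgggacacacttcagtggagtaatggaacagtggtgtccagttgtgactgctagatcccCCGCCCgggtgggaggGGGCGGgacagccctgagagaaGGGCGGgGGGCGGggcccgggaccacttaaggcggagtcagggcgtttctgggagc

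Ptn: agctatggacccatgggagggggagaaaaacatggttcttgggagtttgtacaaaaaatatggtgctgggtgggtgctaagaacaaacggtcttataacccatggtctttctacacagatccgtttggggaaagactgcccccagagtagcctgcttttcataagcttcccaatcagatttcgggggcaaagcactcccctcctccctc

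The Dhh window held 4 GC boxes and the Ptn window 0. Of 32851 promoter windows of the same length, 32.7% held at least 1 at the length of the Dhh window and 26.5% at that of the Ptn window. At the Ptn length, these windows were the first 209 of the 250 bases before each RefSeq start, so they stop short of it. G and C made up 59.6% of the Dhh bases and 49.8% of the Ptn bases, beside medians of 52.4% and 51.7% over all windows of the same lengths. A match is a run of letters and not a shown binding site.

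Ptn (chromosome 6, 36714929 to 36810220, minus strand) marked cells outside the promyelinating class. On plates 1 and 2 its level was 626 and 683 CPM in cycling cells, 347 and 434 CPM in other cells and 16.9 and 21.4 CPM in promyelinating cells. The plates of no class overlapped with those of another. Promyelinating cells were 20.4-fold lower than other cells in the means of both plates. The log2 fold change was -4.27 ± 0.25 (SE) and the adjusted p was 0.000501 in the quasi-likelihood test of edgeR, with adjusted p between 2.05e-68 and 0.000851 over 11 alternative fits. Against cycling cells the difference was larger, with a log2 fold change of 5.15 ± 0.26 for cycling over promyelinating cells (edgeR, adjusted p = 5.97e-05).

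Between cycling and other cells, the Ptn difference of 1.68-fold did not pass the test of edgeR. The log2 fold change was 0.88 ± 0.22, with p = 0.00344 before and 0.165 after adjustment in edgeR, and the adjusted p ran from 0.00252 (DESeq2) to 0.325 over the alternatives. The direction was the same on both plates.

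The share of cells with Ptn reads followed the same order. All 53 and all 57 cycling cells of plates 1 and 2 had reads of Ptn (exact binomial 95% intervals from 93.3% and 93.7% upwards). In other cells the shares were 78.3% and 73.3%. In promyelinating cells they were 10.2% (interval 3.82% to 20.8%) and 18.3% (9.52% to 30.4%), from 6 and 11 cells. With every cell thinned to 50000 reads, the shares were 98.1% and 100% in cycling, 74.9% and 68.8% in other and 10.2% and 13.8% in promyelinating cells. Promyelinating cells had the larger number of detected genes. Among cells of at least 2500 detected genes, the mean share with Ptn reads was 15.3% ± 5.64 in promyelinating and 78.9% ± 5.81 in other cells (SD, n = 2 plates).

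The few promyelinating cells with Ptn were at low levels. Their median Ptn level was 129 CPM on plate 1 and 115 CPM on plate 2, against 314 and 426 CPM in the other cells that had reads. Their median Ncmap level was 234 and 977 CPM, against 1507 and 1461 CPM in promyelinating cells without Ptn. On both plates, then, the Ptn-positive cells of this class had less Ncmap, with small numbers of cells.

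**Figure D2:**
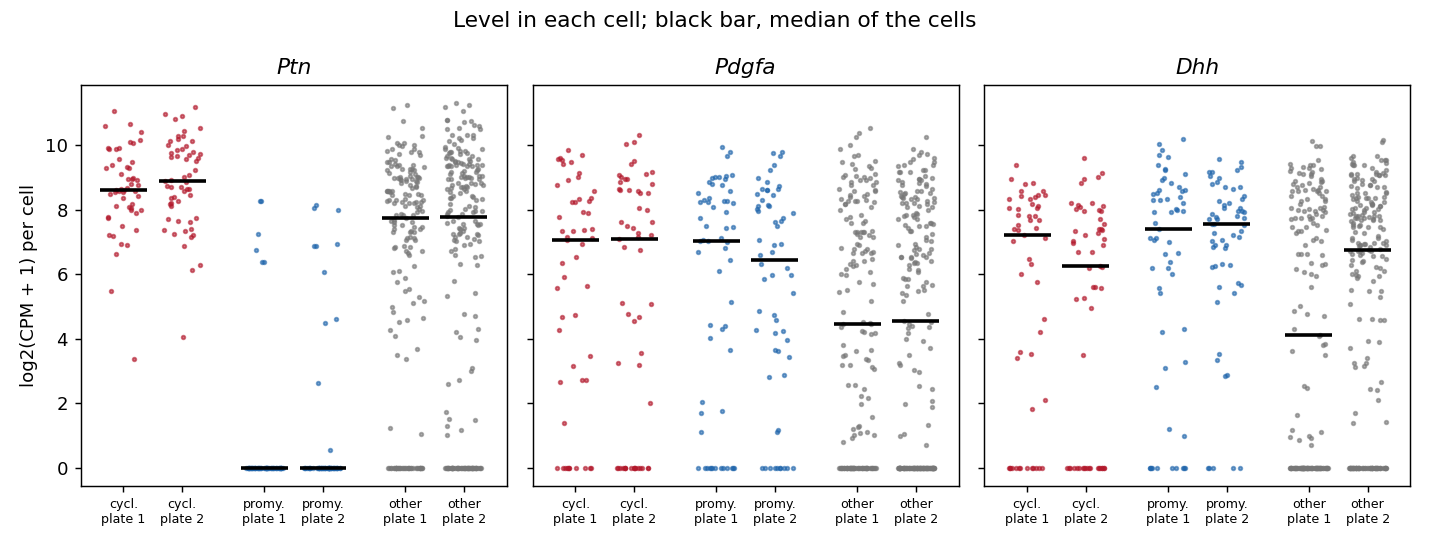
Level of Ptn, Pdgfa and Dhh in each cell as log2(CPM + 1), by class and plate; each dot is 1 cell and the black bar is the median. The Ptn median is at 0 in promyelinating cells on both plates, and no cycling cell is at 0 for Ptn.

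Ncmap defines the promyelinating class, so bins under 50 CPM are other cells and those from 50 CPM are promyelinating cells. The bins are no separate support for the difference between these classes. Across cells that were not cycling, the Ptn share fell from 79.8% and 73.9% of cells without Ncmap reads to 2 of 19 and 5 of 22 cells at 200 to 1000 CPM of Ncmap and 2.86% and 16.1% above 1000 CPM. The bins between, above 0 and up to 200 CPM, held 5 to 7 cells on a plate and their shares (14.3% to 60.0%) are imprecise. Over the Ncmap bins from none to above 1000 CPM, the Dhh share went from 59.5% and 73.0% to 85.7% and 96.8%, and the Pdgfa share from 69.0% and 60.7% to 80.0% and 87.1%.

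**Figure D3:**
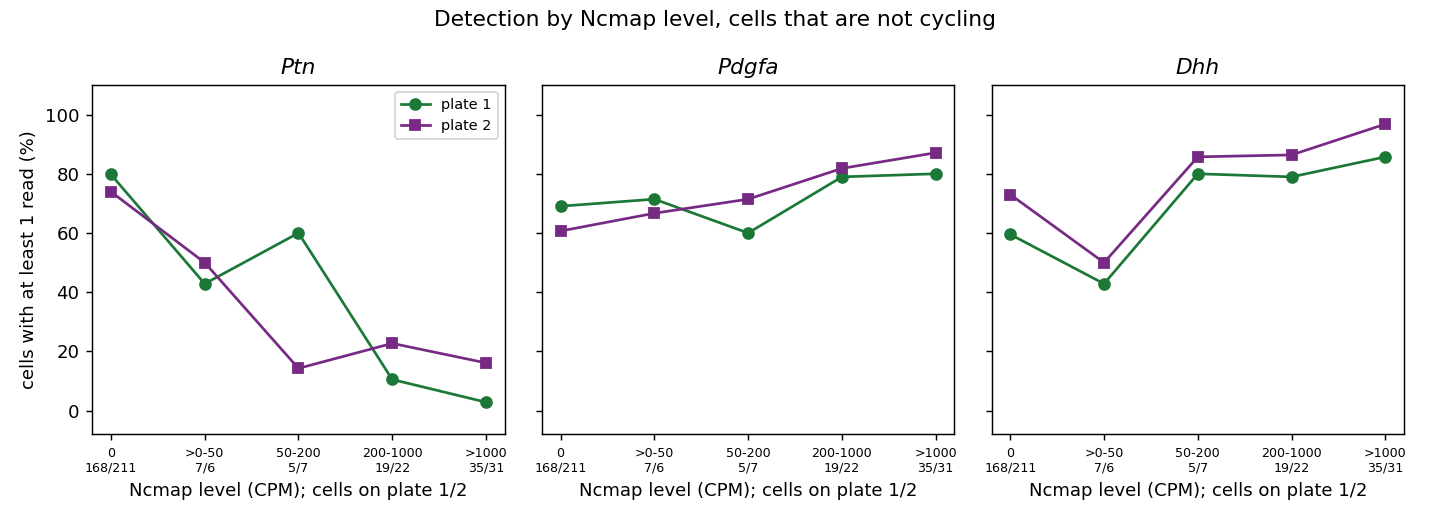
Share of cells with at least 1 read of Ptn, Pdgfa or Dhh (y axis, percent) by the Ncmap level of the cell (x axis, CPM), for cells that are not cycling; the numbers under the bins are the cells on plates 1 and 2. Ptn is at 79.8% and 73.9% in cells without Ncmap and at 2.86% and 16.1% above 1000 CPM, while Pdgfa and Dhh are at 80.0% to 96.8% there. Bins from 50 CPM upwards are the promyelinating class.

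Other cells were not alike in Ptn. Those with Ngfr and L1cam together at 50 CPM or more, genes of immature and non-myelinating SCs, had 427 and 545 CPM of Ptn, against 313 and 373 CPM in those below. Other cells with at least 50 CPM of Cdkn1c, a cell cycle inhibitor, had 276 and 361 CPM, against 408 and 526 CPM in those below. Both differences had the same direction on both plates; these groups were formed after the data were seen and were not tested.

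Genes induced by tissue dissociation also differed between the classes. The 8 genes of this list summed to 2205 and 2418 CPM in promyelinating cells, 5842 and 6380 CPM in other cells and 4726 and 7160 CPM in cycling cells. Of the 8, 4 were lower in promyelinating than in other cells (Fos, Egr1, Ier2 and Atf3 by edgeR). Of all genes, 1.79% were called in this comparison, 66 higher and 172 lower. Among other cells, those without Atf3 (under 50 CPM) had 350 and 417 CPM of Ptn, and those with it had 340 and 478 CPM. The share of cells with Ptn reads was 74.6% and 67.3% without Atf3 and 87.8% and 86.6% with it. The median cell had 171 and 148 CPM of Ptn without Atf3 and 270 and 366 CPM with it. This split was made after the data were seen, and the part of these genes in the difference between the classes was not tested.

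The genes whose levels followed Ptn most closely over cells were Lgals1 (Spearman's rho of 0.508 on plate 1 and 0.532 on plate 2), Hmgn2 (0.482 and 0.511) and Dbi (0.502 and 0.481). They are given as a description over 287 and 334 cells, among 4926 genes detected in at least 20% of cells on both plates; the cells share library, class and depth. With Ncmap, the gene that defines the promyelinating class, rho was -0.563 and -0.470.

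Pdgfa (chromosome 5, 138976014 to 138997370, minus strand) was present in all 3 classes. Its level was 209 and 261 CPM in cycling cells, 240 and 201 CPM in promyelinating cells and 157 and 139 CPM in other cells. Cycling and promyelinating cells overlapped, and both lay above other cells on both plates. Neither difference from other cells passed the test after adjustment. The log2 fold change was 0.66 ± 0.24 for promyelinating cells (edgeR, p = 0.0256, adjusted p = 0.340) and 0.79 ± 0.24 for cycling cells (edgeR, p = 0.0106, adjusted p = 0.278). For the second comparison, adjusted p values in the alternative fits ran from 0.0248 (DESeq2) to 0.523.

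Pdgfa levels spread widely within a class. In other cells the median cell had 20.9 and 22.3 CPM, the upper quartile was 223 and 229 CPM, and the highest cell had 1487 and 1205 CPM. The share of cells with reads was 79.2% and 70.2% in cycling, 78.0% and 83.3% in promyelinating and 69.1% and 60.8% in other cells. At 50000 reads it was 69.2% and 63.2%, 64.4% and 69.0%, and 54.3% and 53.0%. The lower share in other cells stood beside the lower number of detected genes in that class, and the part of this in the result was not tested. The genes most like Pdgfa over cells, Rab8b (rho of 0.224 and 0.158), Gng2 and Nkain4, followed it only weakly.

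Of the Pdgfa exon bases, 26.1% overlap an antisense gene, 6330403L08Rik. The sources do not say whether strand was used in counting, so reads of this stretch cannot be assigned to one of them.

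Dhh (chromosome 15, 98891152 to 98898540, minus strand) was likewise found in every class. The level was 147 and 132 CPM in cycling cells, 206 and 203 CPM in promyelinating cells and 146 and 165 CPM in other cells. Promyelinating cells lay above both other classes on both plates, and cycling and other cells overlapped. The means were 205 ± 1.95 CPM in promyelinating and 155 ± 12.9 CPM in other cells (SD, n = 2), which gave a log2 fold change of 0.48 ± 0.24 that did not pass the test (edgeR, adjusted p = 0.535). Cycling over promyelinating cells gave -0.49 ± 0.25 (edgeR, adjusted p = 0.303), and cycling over other cells gave -0.02 ± 0.24 (edgeR, adjusted p = 0.994).

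More promyelinating than other cells had Dhh reads. The shares were 83.1% (exact binomial 95% interval 71.0% to 91.6%) and 91.7% (81.6% to 97.2%) in promyelinating cells and 58.9% (51.2% to 66.2%) and 72.4% (65.9% to 78.2%) in other cells. Cycling cells had 75.5% and 66.7%. At 50000 reads per cell, promyelinating cells had 74.6% and 87.9% and other cells 49.7% and 66.1%, so the classes did not overlap at equal depth either. The difference in means over the plates was 21.8 percentage points (two-sided exact permutation test, p = 0.333, the smallest p that 2 plates against 2 allow). The test takes no account of both classes sharing the plates. Classes that do not overlap always give this p, so it cannot decide the question. The number of detected genes was higher in promyelinating cells. Among cells of at least 2500 detected genes, the shares were 83.02% and 92.98% in promyelinating and 74.6% and 80.0% in other cells, a difference of 10.7 percentage points (p = 0.333 in the same exact permutation test).

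Among other cells, Dhh was higher in those with Cdkn1c (186 and 216 CPM) than in those without it (112 and 100.2 CPM), opposite to Ptn. Cells with Ngfr and L1cam had 216 and 178 CPM of Dhh and those below had 116 and 157 CPM. The share of cells with Dhh reads was 76.8% against 50.4% on plate 1 and 72.5% against 72.2% on plate 2. All of these groups were formed after the data were seen, and the differences were not tested. The genes most like Dhh over cells were Rmi1 (rho of 0.411 and 0.268), Pllp, a myelin-associated membrane protein gene (0.358 and 0.263), and Gm20671 (0.275 and 0.260). Dhh shares 12.4% of its exon bases with Rhebl1 on the same strand and 25.2% with an antisense gene, Gm49442. Rhebl1 itself was at 10.7 ± 0.160 CPM (SD, n = 2), with reads in 36 cells.

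**Figure D4:**
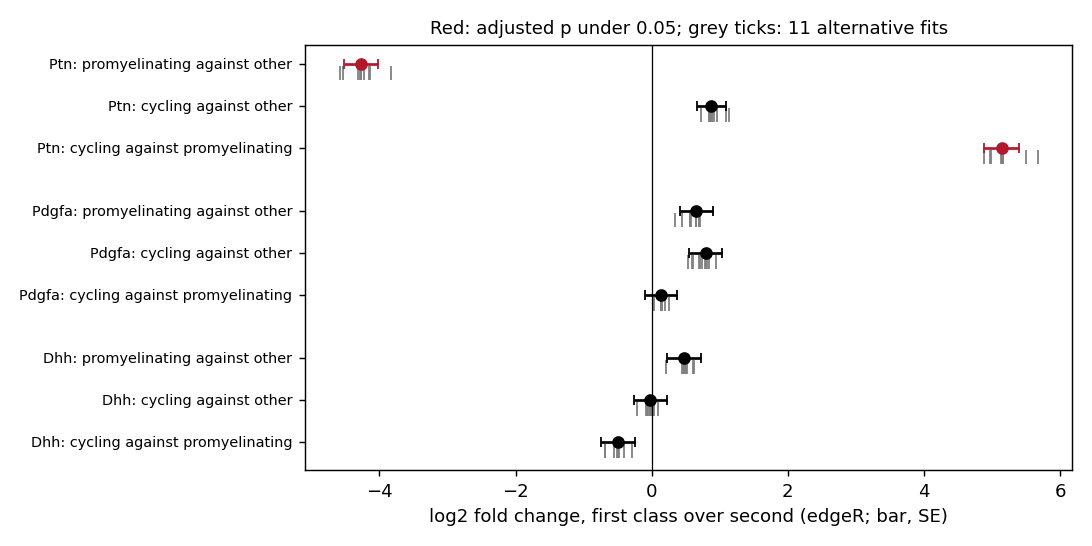
Log2 fold change of Ptn, Pdgfa and Dhh in the 3 comparisons of classes (point, edgeR; bar, SE; red, adjusted p under 0.05), with 11 alternative fits as grey ticks. The Ptn differences from promyelinating cells, at -4.27 and 5.15, are the ones in red; the remaining points lie between -0.49 and 0.88.

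The tests ran over 13292 genes, and 5 of the 9 factors passed the filter on low counts (Ptn, Pdgfa, Dhh, Cntf, Vegfa). Between promyelinating and other cells 1.79% of all genes were called, and 1 of the 5 tested factors, Ptn, was. Between cycling and promyelinating cells 5.95% of genes were called and again 1 of the 5, Ptn. Between cycling and other cells 1.01% of genes and 0 of the 5 were called in edgeR. There 2 had an unadjusted p under 0.05 in edgeR, Ptn and Pdgfa. DESeq2 called these 2, beside 813 of all 13292 genes. The median log2 fold change of the 5 was 0.48, 0.45 and 0.83 in these 3 comparisons, beside -0.07, 0.02 and -0.07 over all genes. These medians are the values of single genes, Dhh, Cntf and Vegfa in turn. Those of Cntf (SE 2.64) and Vegfa (SE 3.01) rest on few cells, so no shift of the factors is read from them.

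The 3 common factors were often found in 1 cell. All 3 had reads in 60.4% and 50.9% of cycling cells, 32% and 30.4% of other cells and 5.08% and 11.7% of promyelinating cells. In promyelinating cells, 38 of 59 and 45 of 60 had both Pdgfa and Dhh. None of the 3 was found in 8 of 175 and 5 of 217 other cells. Within the other cells the levels of any pair were hardly related, with rho between -0.0906 and 0.159 on single plates.

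The neurotrophic factors were nearly silent in these cells. Ntf3 had 0 reads in 621 cells, which allows a share of up to 0.483% of cells with a read. Gdnf had 126 reads in a single other cell of plate 2, at 94.8 CPM there. Bdnf had 166 reads in a single other cell of plate 2, at 534 CPM, and Lif 24 reads in a single other cell of plate 1, at 21.8 CPM. In the cycling and promyelinating classes, these 4 genes had no read, with 110 and 119 cells allowing shares of up to 2.73% and 2.52%. These 4 genes did not pass the filter and were not tested.

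Cntf reads were counted in 13 cells, 9 on plate 1 and 4 on plate 2. By class they lay in 5 cycling, 5 promyelinating and 3 other cells. The 3 highest cells of plate 1 held 80.1% of its reads there. The level was 9.46 and 1.11 CPM in cycling, 8.17 and 0 CPM in promyelinating and 1.16 and 0.0752 CPM in other cells; the plates of all classes overlapped and no difference passed the test (edgeR, adjusted p = 0.791 to 0.958). Of the Cntf exon bases, 78.9% also belong to Zfp91 on the same strand, a gene at 52.1 ± 3.90 CPM with reads in 236 cells, so the reads counted for Cntf are uncertain.

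Vegfa, a target of the hypoxia response, was found in 18 cells, with at most 72.7 CPM in a cell. The level was 0.0843 and 2.13 CPM in cycling cells, 0.767 and 0 CPM in promyelinating cells and 0.256 and 1.09 CPM in other cells, and no difference passed the test (edgeR, adjusted p = 0.839 to 0.983). Among relatives, Vegfb had reads in 49 cells, Vegfc in 3, Vegfd in 3 and Pgf in 1.

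The receptors and partners of these factors were taken from 8 lists with 104 genes, of which 65 were tested. In promyelinating against other cells, 0 rose and 6 fell, 9.23% of those tested, at a median log2 fold change of -0.56. Over all genes 1.79% were called there, 66 higher and 172 lower, and the median was -0.07. In cycling against other cells, 0 rose and 2 fell (3.08%, beside 1.01% of all genes, 119 higher and 15 lower). In cycling against promyelinating cells 10 were higher and 3 lower (20%, beside 5.95% of all genes, 509 higher and 282 lower). The lists were chosen with earlier results of these data known, and nothing is read from these shares beyond the counts.

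For pleiotrophin, 2 of 10 tested list genes fell in promyelinating against other cells, where 1.79% of all genes were called in either direction. Ptprz1, the receptor phosphatase that Ptn binds, was at 133 ± 27.0 CPM in cycling, 112 ± 19.2 in other and 11.1 ± 2.98 CPM in promyelinating cells (SD, n = 2). Its log2 fold change in promyelinating against other cells was -3.25 ± 0.40 (edgeR, adjusted p = 0.00552). Sdc4, a heparan sulphate proteoglycan, fell from 1712 ± 470 to 546 ± 146 CPM (log2 fold change -1.57 ± 0.27; edgeR, adjusted p = 0.0257). Ncl, a nuclear protein described as a binding partner, was at 341 ± 148 CPM over all cells, and Itgb3 at 127 ± 9.19 CPM. Itgav was higher in cycling than in promyelinating cells (50.2 ± 9.84 against 10.7 ± 3.53 CPM; edgeR, adjusted p = 0.0494), while adjusted p reached 0.158 in an alternative fit. The receptor kinase gene Ltk had 0 reads.

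For hedgehog signalling, 0 of 11 tested list genes were called in promyelinating against other cells by edgeR, beside 1.79% of all genes. In edgeR, 2 of the 11 had an unadjusted p under 0.05. DESeq2 called 3 of them, beside 1026 of all 13292 genes. The receptor Ptch1 was at 22.5 ± 11.5 CPM in cycling, 22.7 ± 3.28 in promyelinating and 29.1 ± 16 CPM in other cells. The signal transducer Smo was at 61.9 ± 41.7, 86.7 ± 3.65 and 72.3 ± 18.6 CPM. The target gene and effector Gli1 had 13 reads in 4 cells. The ligand Ihh had 0 reads and Shh was found in 1 cell, so that Dhh was the hedgehog ligand with common reads. Scube1, of a family of secreted proteins that help release hedgehog ligands, was lower in cycling than in promyelinating cells (15.6 ± 7.36 against 80.6 ± 3.66 CPM; log2 fold change -2.33 ± 0.55; edgeR, adjusted p = 0.0448, up to 0.116 in alternatives). Gli3 had reads in 17 of 110 cycling cells and 0 of 119 promyelinating cells (edgeR, adjusted p = 0.0394, up to 0.0844 in alternatives). A floor of 3 reads in the promyelinating sum of each plate lay 382-fold below cycling cells on plate 1 and 67.0-fold on plate 2. This floor counts reads and sets no lower bound on the fold difference. By cells, 0 of 119 allows a share of up to 2.52%, beside 15.5% of cycling cells.

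Of the neurotrophin list, Ngfr, the low-affinity neurotrophin receptor, fell in promyelinating against other cells, from 52.3 ± 7.64 to 0.288 ± 0.407 CPM (edgeR, adjusted p = 0.0495, up to 0.0563 in alternatives). It had reads in 2 of 119 promyelinating cells. Cycling cells were at 43.1 ± 10.5 CPM. Ntrk3, the receptor for the product of Ntf3, was at 96.5 ± 22.2 CPM in cycling, 40.6 ± 40.4 in promyelinating and 153 ± 0.663 CPM in other cells. It did not pass the test in promyelinating against other cells (edgeR, adjusted p = 0.338) or in cycling against promyelinating cells (edgeR, adjusted p = 0.321), but the adjusted p of the alternatives ranged from 0.0187 to 0.389 and from 0.0311 to 0.396, so at least 1 alternative called each difference. Sort1 and Sorcs1 were at 92.5 ± 24.7 and 71.3 ± 2.11 CPM over all cells. Ntf5 and Sorcs3 had 0 reads.

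Of the GDNF family, the signalling receptor Ret and Gfral had 0 reads. Ncam1, an adhesion molecule that also binds GDNF, fell from 496 ± 73.3 CPM in other to 165 ± 10.4 CPM in promyelinating cells (log2 fold change -1.51 ± 0.21; edgeR, adjusted p = 0.00986). Gfra2, a co-receptor, was at 51.9 ± 31.6 CPM in cycling and 3.76 ± 0.0850 CPM in promyelinating cells (edgeR, adjusted p = 0.0206, up to 0.133 in alternatives). Gfra3 and Sdc3 were at 25.2 ± 0.464 and 77.4 ± 3.92 CPM over all cells.

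Of the cytokines that signal through gp130, Il6, Il11 and Osm had 0 reads. Il6st, the gene of gp130 itself, was higher in cycling than in promyelinating cells (87.9 ± 28.6 against 14.6 ± 7.44 CPM; edgeR, adjusted p = 0.0351, up to 0.0674 in alternatives). Socs3, a feedback inhibitor of the pathway, fell from 75.2 ± 1.68 CPM in other to 7.82 ± 1.93 CPM in promyelinating cells (log2 fold change -3.19 ± 0.48; edgeR, adjusted p = 0.0143). Stat3, its transcription factor, was lowest in cycling cells, at 7.64 ± 2.58 CPM against 85.1 ± 12.5 in other cells (log2 fold change -3.34 ± 0.51; edgeR, adjusted p = 0.0207, up to 0.0511 in alternatives). Jak1 was at 90.4 ± 16.5 CPM over all cells.

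The receptor of Pdgfa, Pdgfra, had 0 reads in 621 cells. Pdgfrb, the receptor for PDGF-B and also one of the mural markers, was read in 26 of 392 other cells and 27 of 119 promyelinating cells, at 29.2 ± 12.1 and 28.7 ± 21.1 CPM, and in 0 of 110 cycling cells. A floor of 3 reads in the cycling sum of each plate lay 328-fold and 568-fold below other cells on plates 1 and 2 (edgeR, adjusted p = 0.00976). The same floor lay 691-fold and 207-fold below promyelinating cells (edgeR, adjusted p = 0.00338). It counts reads and sets no lower bound on the fold difference, since the 53 cells with Pdgfrb held 12835 reads. A count of 0 in 110 cells allows a share of up to 2.73% of cells with a read. Pdgfc was at 15.6 ± 1.16 CPM and Pdgfb was found in 1 cell.

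Of 8 tested genes of the VEGF list, none was called in any of the 3 comparisons by edgeR. Of all genes, edgeR called 1.79%, 1.01% and 5.95% in promyelinating against other, cycling against other and cycling against promyelinating cells. In this order, 1, 0 and 1 of the 8 had an unadjusted p under 0.05 in edgeR. DESeq2 called 1, 0 and 0 of them, beside 1026, 813 and 2329 of all 13292 genes. The endothelial receptor Kdr had 0 reads. The co-receptors Nrp2 and Nrp1 were at 146 ± 23 and 37.9 ± 3.90 CPM over all cells, and the oxygen sensor Egln1 at 62.8 ± 9.86 CPM.

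Among other secreted growth factors, Hbegf, a ligand of the EGF receptor, was, like Ptn, lowest in promyelinating cells. It was at 211 ± 23.2 CPM in cycling and 239 ± 26.2 CPM in other cells and at 24.6 ± 10.3 CPM in promyelinating cells (promyelinating against other, log2 fold change -3.20 ± 0.36; edgeR, adjusted p = 0.00355). Fgf1 and Fgf2 were at 73.4 ± 18.8 and 28.2 ± 5.91 CPM over all cells and were not called. Nrg1, Fgf5, Hgf and Epo had 0 reads.

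**Figure D5:**
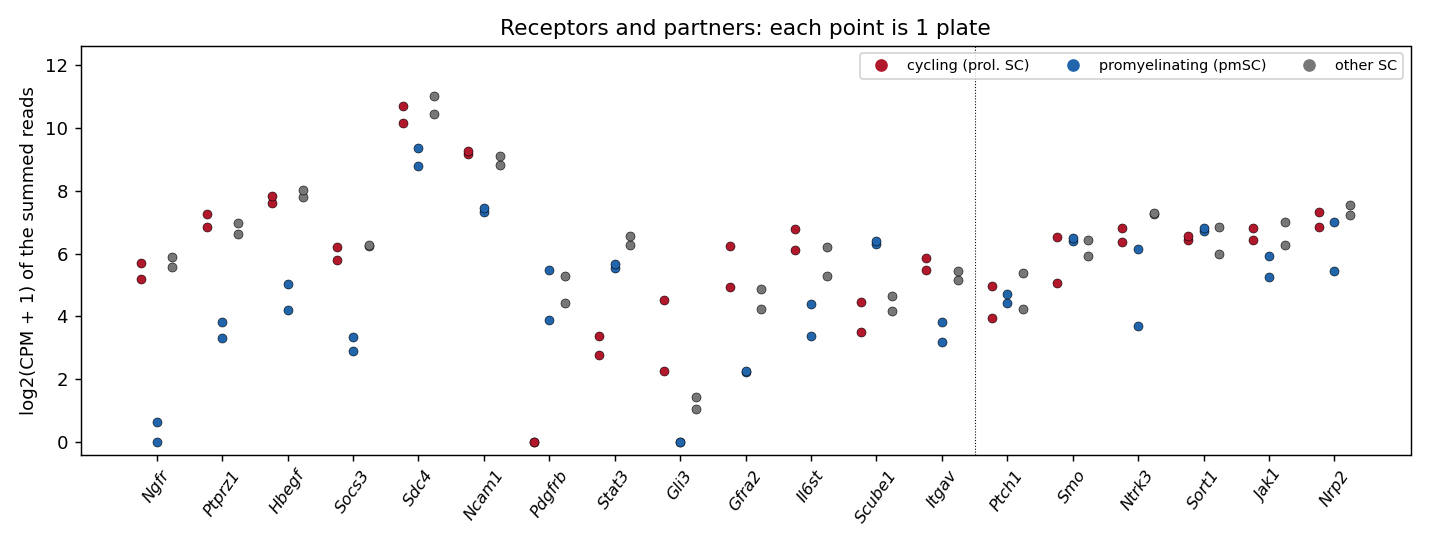
Level of the 13 called receptor, ligand and pathway genes (left of the dotted line) and of 6 uncalled receptors and pathway genes (right) as log2(CPM + 1) of the summed reads by class; each point is 1 plate. Promyelinating points lie below both other classes for Ptprz1, Hbegf, Socs3, Sdc4, Ncam1 and Ngfr, while cycling cells have no Pdgfrb read on either plate.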

How the data were processed

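The authors aligned reads with STAR and used featureCounts for gene counts. The submitters' processing notes name STAR 2.6.1c, bcl2fastq and GRCm38.p5, the methods a human assembly, while all IDs are mouse IDs. The deposited values are raw counts, without molecular identifiers. Strand use is not given in the sources used here. Symbols came from GENCODE M21 (25587 of 25700 IDs matched). The 9 genes, the lists and the classes were chosen with earlier results of these data known. Wells under 1500 genes (122) were set aside. Counts were summed per plate and class, 6 sums, and tested with edgeR 4.0.16 (TMM, filterByExpr, robust quasi-likelihood F test, Benjamini-Hochberg adjustment over all tested genes, threshold 0.05). The SE was obtained by dividing the log2 fold change by the root of the F statistic. CPM values are not corrected for length unless given per kilobase. For shares, thinning to 50000 reads left out 5 cells. Cells are not replicates. A floor is 3 counts. Named genes were the 9 factors, from each list the called genes (up to 15 per comparison by size), the 3 of highest mean CPM and those with 0 reads, and the 3 most correlated genes per common factor; Shh, Gli1, relatives of Vegfa, overlapping genes and the genes that divide the other cells were named after their values were seen. Alternatives were DESeq2 1.42.0, limma 3.58.1 on log2(mean CPM + 1), no filter, thinning, gene minimums of 1000 and 2500, class limits of 10 and 200 CPM, cells over both limits or the highest cell left out, and each plate left out. Sums of one plate share their mice; over 3410 genes, the plate-to-plate deviations of class pairs had r of 0.136, 0.233 and 0.209, so a replicate block was tried too. The steps were tested on simulated data. Some genes of these lists are not reported here.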

Additional observations from a re-analysis of the deposited data

Results flagged for a closer look

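Wells set aside for having under 1500 genes still held reads of 3 factors. Of these 122 wells, 18% had Ptn, 13.1% had Pdgfa and 7.38% had Dhh reads, above the 2.46% of wells that a count of 0 allows. The other 6 factors had no read there. These wells had a median of 5685 reads, and they entered no comparison.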

How the results depend on the processing

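The call of Ptn in promyelinating against other and in cycling against promyelinating cells was made in each of the 11 alternative fits with a test, and no called difference changed direction. Of 162 results of single factors under these alternatives, 155 kept their direction and side of the threshold, 2 were called in addition, and 5 uncalled differences of Dhh and Vegfa changed sign. Between cycling and other cells the number of called factors rose from 0 to 2 with DESeq2 (Ptn and Pdgfa). Over all genes, the counts for promyelinating against other cells were 1026 with DESeq2, 521 with no filter, 387 with limma and 391 after thinning, against 238; for cycling against other cells 813, 317, 214 and 238, against 134; and for cycling against promyelinating cells 2329 with DESeq2, 1290 with no filter and 1362 with limma, against 791. The cause was not tested. In cycling against other cells, the share of called genes that were higher was 88.8%, and 55% with DESeq2 and 71.6% with no filter. With the plate as a replicate block, 295, 156 and 885 genes were called in the 3 comparisons and the calls of the 9 factors did not change. With 1 plate left there is no test; the log2 ratio of Ptn was then between -4.30 and -4.25 in promyelinating against other cells. Precision is limited by 2 plates and, for the rare factors, by few cells. The number of factors detected in at least 20% of cells on both plates was 3 under every setting tried.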
